A study of Caenorhabditis elegans with 24 samples.

Results

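Wild type Caenorhabditis elegans on adult day 4 were compared with wild type animals on adult day 1, over all genes, in RNA of whole animals. The members are 6 of the 24 libraries of the series, namely the 3 labelled wild type day 1 and the 3 labelled wild type day 4 in the first of 2 deposited count tables. Both groups are the laboratory strain N2, labelled wild type, grown at 20 °C on OP50 bacteria from synchronised first-stage larvae, and the animals of day 4 were moved to fresh plates daily so that offspring did not build up. The same table holds 3 libraries each of ceh-60(ok1485) mutants on day 1 and day 4, which carry an allele of a homeodomain gene of the PBX family and were grown alike. They entered the fit for the estimate of spread and are used at the end as a comparison. Other libraries of the series carry pqm-1 alleles and were not used.

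Adult hermaphrodites lay most of their eggs in the first days of adulthood. During that time the gonad makes oocytes and eggshell material, and the intestine makes large amounts of vitellogenin, the yolk protein precursor that is taken up by oocytes. The adult cuticle is laid down at the last molt by the epidermis, with collagens as its main building blocks. Insulin signalling through the receptor DAF-2 restrains the transcription factor DAF-16, a pathway known for setting lifespan and stress resistance, and DAF-16 and the zinc finger factor PQM-1 act on partly separate sets of genes.

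Total counts assigned to genes were between 22488718 and 32598349 per wild type library. Levels are given in CPM, counts relative to the library's total after TMM scaling, in the order of replicates 1 to 3 on each day, and every log2 fold change is day 4 against day 1 with its standard error. A gene is called where its adjusted p (quasi-likelihood F-test of edgeR, Benjamini-Hochberg over all genes) was under 0.05, and "rose" and "fell" are used only of called genes. A principal component that held 48.5% of the variance of the 12 libraries set the days apart in wild type, with scores of -42.92 to -42.09 on day 1 and 38.33 to 45.99 on day 4. Separate cultures for the replicates are not stated in the labels, and the p-values cover the spread between these libraries alone, which may be technical. The tissue markers listed for whole animals were present for germ line, oocyte, intestine and body wall muscle, whereas major sperm protein genes together took 0.000152% to 0.002% of the counts. Coordinates are those of the count table, made on WormBase release 260.

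Most tested genes differed between the days, the larger part of them by small amounts. Of 13137 genes tested 7193 (54.8%) were called, of which 3735 rose (28.4%) and 3458 fell (26.3%). The median absolute log2 fold change of called genes was 0.52, and 3969 of the calls (55.2%) were under 1.5-fold. Among calls of at least 2-fold, 859 genes rose (6.54%) and 919 fell (7%), and at 4-fold there were 303 rises and 199 falls. Whether called or not, 4412 tested genes (33.6%) were higher and 4017 (30.6%) lower on day 4 without overlap between the days. The median over all tested genes was 0.02. Directions are relative to TMM scaling, whose factors were 0.911 to 0.924 on day 1 and 1.02 to 1.05 on day 4. With libraries scaled to total counts instead, an alternative added after the values were seen, the median was 0.20, a shift of 0.18, and 5733 genes were higher and 2261 lower. Rises then made up 71.7% of the calls, against 51.9%, and each list described below for which this moved a count by over 1.5 times or turned the balance is given with its counts under total-count scaling. Counts of list members below are read against the shares of 28.4% and 26.3%, and all 53 lists are shown together in the plot of shares by list.

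**Figure D1:**
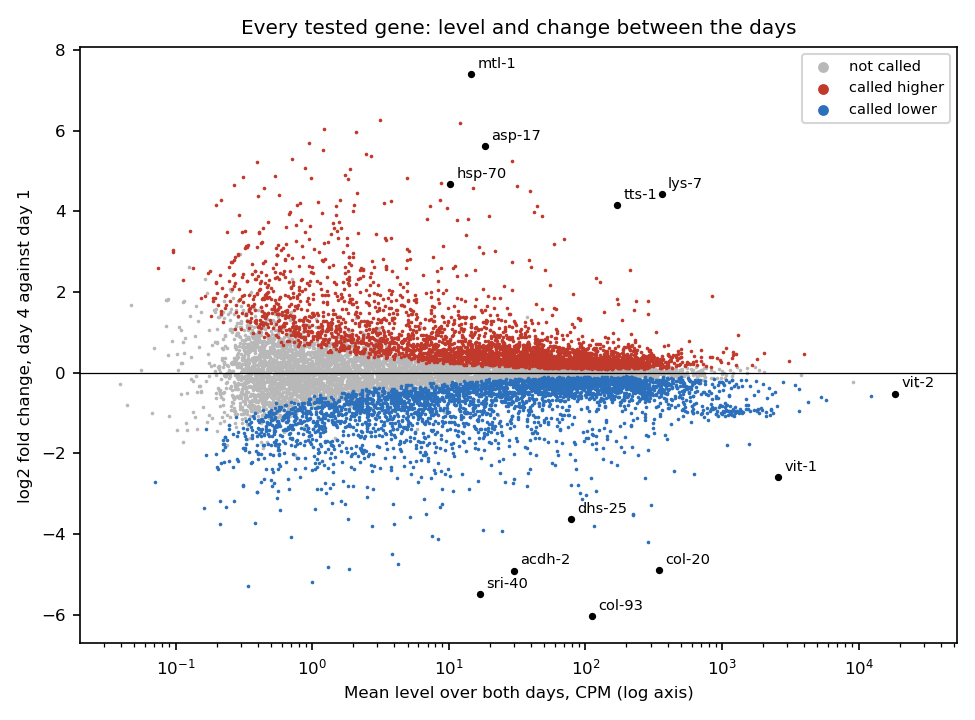
Each point is a tested gene of wild type, with its mean level over both days in CPM on a log axis and its log2 fold change of day 4 against day 1. Red points rose and blue points fell. Genes that lacked counts in at least 1 group of the table, such as dct-8, are left out. Large changes in both directions are seen mainly left of the most abundant genes, where mtl-1 (7.40) and col-93 (-6.03) lie at the extremes.

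The 12 largest rises among well measured genes included mtl-1, asp-17, hsp-70, lys-7 and tts-1. The ranking was over called genes whose mean was 5 CPM or more and whose days did not overlap, 5235 in all (39.8% of those tested). The metallothionein gene mtl-1 (WBGene00003473, chromosome V, 6691371 to 6691863), whose small protein binds metal ions, stood at 0.0873, 0.359 and 0.0488 CPM on day 1 and 19.9, 24.8 and 42.7 CPM on day 4. It was nearly absent from all day 1 libraries and present in all of day 4, with a log2 fold change of 7.40 ± 0.51 (edgeR, adjusted p = 1.04e-07). The aspartyl protease gene asp-17 had 0.698, 0.987 and 0.488 CPM on day 1 and 43.1, 38.1 and 27.2 CPM on day 4 (5.62 ± 0.28). hsp-70, which encodes an inducible chaperone of the Hsp70 family, was at 0.305, 0.494 and 1.56 CPM on day 1 and 14.2, 16.3 and 28.3 CPM on day 4 (4.67 ± 0.66). Its day 1 values spread widely among themselves, yet each was far below every day 4 value. The lysozyme gene lys-7 (WBGene00003096, chromosome V, 3481421 to 3482600), a defence gene of the intestine, reached 40.2, 24.9 and 31.6 CPM on day 1 and 608, 643 and 821 CPM on day 4 (4.42 ± 0.16). The long noncoding RNA tts-1, known to be abundant in long-lived mutants with low insulin signalling, had 15.1, 26.2 and 13.3 CPM on day 1 and 300.3, 310.3 and 358 CPM on day 4 (4.14 ± 0.19). Both lys-7 and tts-1 were already well expressed on day 1 and separated the days without overlap. The cytochrome P450 gene cyp-13A5 (4.51 ± 0.38), the acyltransferase gene oac-14 (4.58 ± 0.38) and dod-3 (4.27 ± 0.44), named as downstream of DAF-16, were among the 12 largest rises. The rest were F15B9.6 (6.19 ± 0.42), C50F7.5 (5.24 ± 0.40), F08G2.5 (4.71 ± 0.22) and Y47H10A.5 (4.62 ± 0.19). For these 12 genes adjusted p was between 1.49e-09 and 5.47e-05. Replicate 3 of day 4 held the highest value in 10 of the 12, against 40.4% of all genes that rose.

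Genes with no count at all in the 3 day 1 libraries stand outside that ranking. There were 14 such genes among those called higher, and 1 with no count on day 4 among those called lower. The highest of them was dct-8 (WBGene00044472, chromosome IV, 3895070 to 3895506), chosen after its values were seen and also a member of the DAF-16 list, with 4.55, 7.2 and 15.5 CPM on day 4. Against a floor of 3 counts over the day 1 libraries together it was at least 218-fold higher.

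The largest falls were dominated by cuticle collagens. Of the 12 largest, 6 were col genes, as were 12 of the 20 largest. col-93 (WBGene00000668, chromosome III, 10984555 to 10985609) went from high to almost none, with 254, 186 and 226 CPM on day 1 and 1.26, 1.24 and 8.43 CPM on day 4 (-6.03 ± 0.40, edgeR, adjusted p = 7.91e-08). col-20 had 770.3, 548 and 693 CPM on day 1 and 15.2, 16.7 and 37.1 CPM on day 4 (-4.88 ± 0.31). Replicate 3 of day 4 retained the most of both transcripts, but still far less than any day 1 library. The other collagens were col-124 (-4.19 ± 0.51), col-155 (-4.05 ± 0.18), col-142 (-3.93 ± 0.42) and col-160 (-3.79 ± 0.23). Outside the collagens, acdh-2, an acyl-CoA dehydrogenase gene, stood at 62.4, 50.03 and 61.4 CPM on day 1 and 1.29, 2.29 and 2.12 CPM on day 4 (-4.90 ± 0.26). dhs-25, a short-chain dehydrogenase gene, had 157, 134 and 144 CPM on day 1 and 11.4, 13.1 and 10.5 CPM on day 4 (-3.63 ± 0.11). Both separated the days by a wide margin. sri-40, a serpentine receptor gene (-5.49 ± 0.15), grd-3 of the hedgehog-related family (-3.89 ± 0.20), F53F1.4 (-4.12 ± 0.45) and Y48E1B.8 (-3.57 ± 0.22) completed the 12, with adjusted p of between 1.45e-10 and 1.43e-05. In 10 of the 12, replicate 2 of day 1 was the lowest of its group, and in 8 replicate 3 of day 4 was the highest of its group.

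The cuticle list as a whole followed its leading genes. Of 156 col genes listed, 72 were tested, and of these 39 fell (54.2%), 4 rose (5.56%) and 29 did not pass, with a median log2 fold change of -1.57. Together col genes took 0.747% to 0.977% of the counts on day 1 and 0.211% to 0.258% on day 4, ranges that do not overlap. col-19, a collagen known to be made in adults and chosen after its values were seen, had 668, 422 and 552 CPM on day 1 and 47.3, 50.02 and 73.6 CPM on day 4 (-3.27 ± 0.21). col-8 (-3.50 ± 0.15) and col-101 (-1.64 ± 0.08) fell with the smallest p beside col-155. The members that rose were low, such as col-43 with 0.436, 0.583 and 0.732 CPM on day 1 and 2.24, 2.29 and 3.82 CPM on day 4 (2.24 ± 0.27). Among collagens that shape the body, of 14 tested, 2 rose, 2 fell and 10 did not pass, with a median of 0.36. bli-4, a protease gene that processes collagens, rose (0.36 ± 0.04), and the low bli-6 (-2.92 ± 0.83) and lon-3 (-1.45 ± 0.47) fell. These small counts rested on single libraries: falls numbered 0 without day 1 replicate 1 and 1 without day 4 replicate 1 or 2, and rises numbered 1 without day 1 replicate 2 or 3 or day 4 replicate 3. The adjusted p of the genes named in this paragraph was between 3.74e-09 and 0.019. Multimapping reads were left out by the counting, and values of closely alike collagens are uncertain.

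Other epidermal families moved in both directions. Of 29 antimicrobial peptide genes of the nlp, cnc and fipr families tested, 13 rose and 7 fell. The caenacin genes cnc-7 (2.87 ± 0.25) and cnc-4 (2.60 ± 0.28) and the peptide gene nlp-34 (3.91 ± 0.46) rose, whereas nlp-24 (-2.50 ± 0.13), fipr-21 (-1.86 ± 0.13) and fipr-13 (-2.36 ± 0.24) fell. cnc-4 had 1.44, 0.763 and 1.95 CPM on day 1 and 10.003, 8.2 and 6.97 CPM on day 4, and nlp-24 had 23.8, 19.1 and 20.7 CPM on day 1 and 3.61, 3.97 and 3.57 CPM on day 4, so that neither overlapped between the days. Among 51 hedgehog-related genes and their patched-related receptors, 11 rose and 10 fell, near the shares of all genes, and 13 and 7 under total-count scaling. Leaving out day 1 replicate 2 or 3 lowered the rises to 6 or 7. The receptor-like ptr-22 (2.99 ± 0.50) rose and grd-5 (-2.67 ± 0.18) fell. Their adjusted p was between 8.06e-09 and 0.000207 by edgeR.

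**Figure D2:**
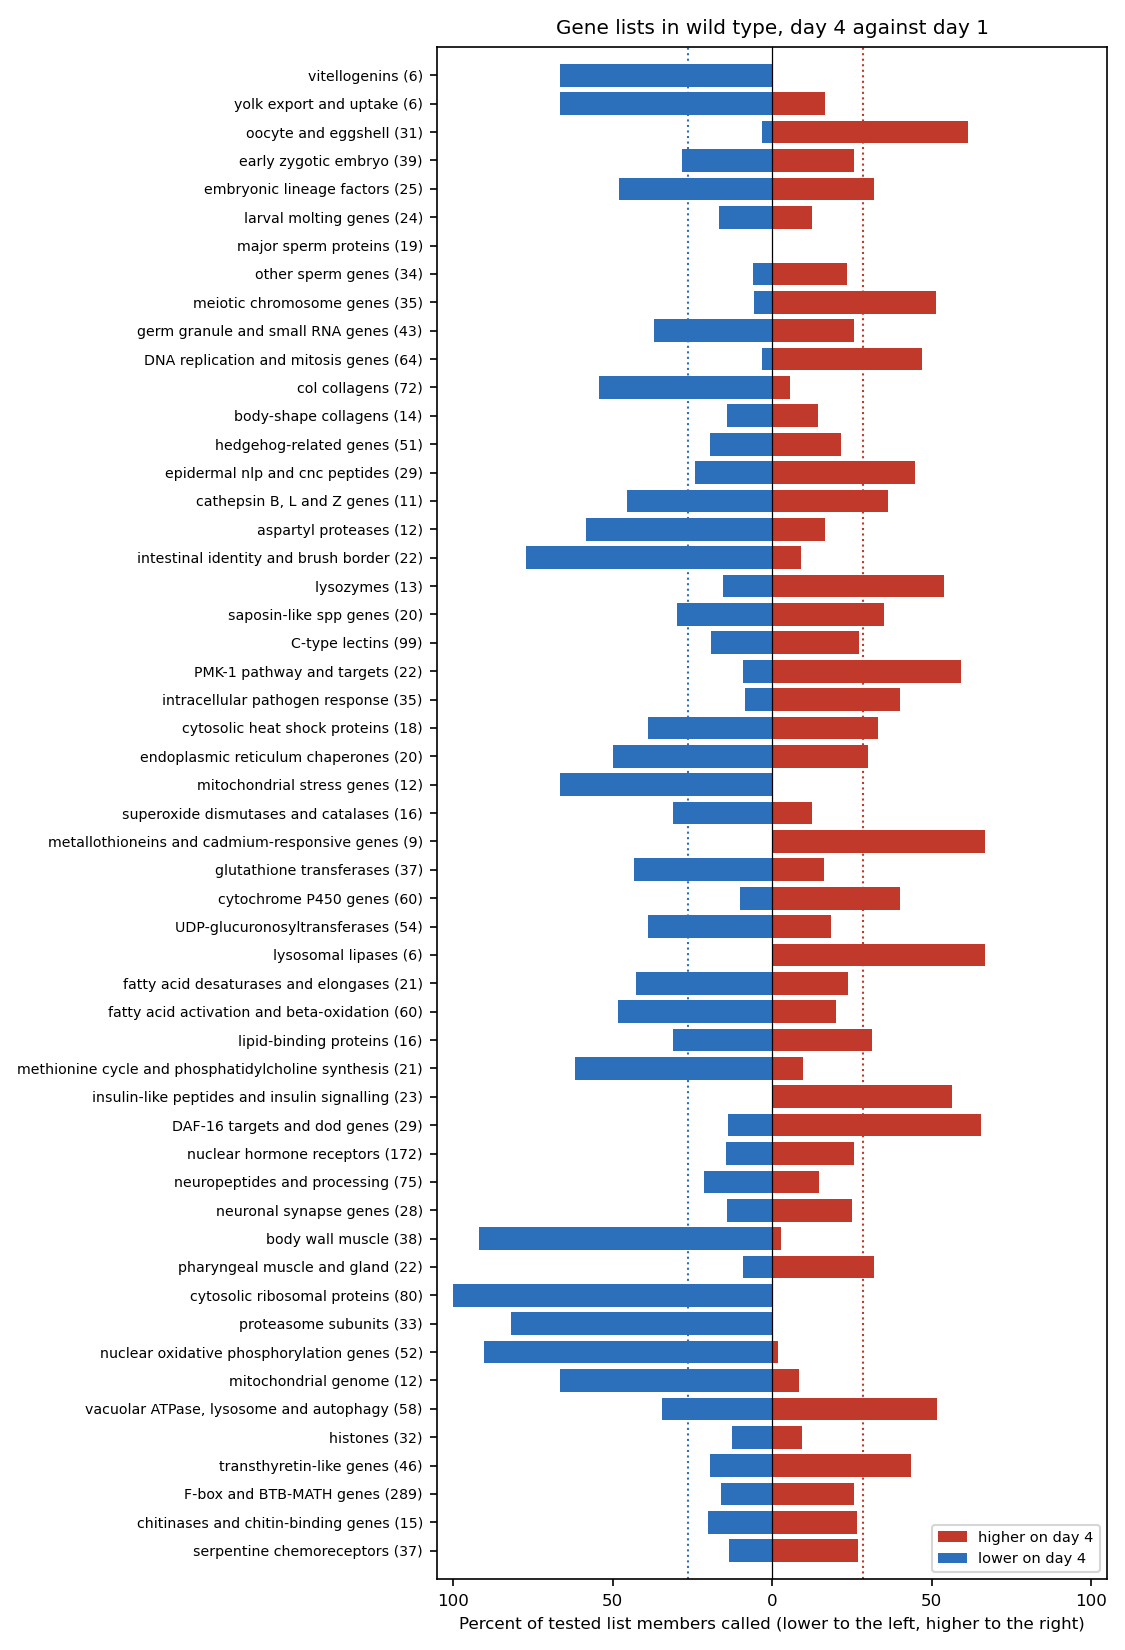
Bars give the percent of tested members of each of 53 gene lists that rose (red, to the right) or fell (blue, to the left) in wild type, with the number tested in parentheses, and dotted lines give the shares of all tested genes, 28.4% and 26.3%. Ribosomal protein, body wall muscle and oxidative phosphorylation genes extend far to the left, and insulin signalling and DAF-16 lists to the right.

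Genes of the body wall muscle, whose sarcomeres move the animal, were lower on day 4 almost throughout. Of 38 tested, 35 fell (92.1%), 1 rose and 2 did not pass, with a median of -1.02. The list took 0.563% to 0.648% of counts on day 1 and 0.386% to 0.407% on day 4. The troponin T gene tnt-2 (WBGene00006587, chromosome X, 8721557 to 8723552) had 163, 129.6 and 139 CPM on day 1 and 25.9, 25.4 and 31 CPM on day 4 (-2.39 ± 0.12). pat-10, which encodes troponin C, had 494, 454 and 409 CPM on day 1 and 119.99, 117 and 121 CPM on day 4 (-1.92 ± 0.10), and mlc-2, a myosin light chain gene, had 195, 193 and 177 CPM on day 1 and 48.5, 47.2 and 56.8 CPM on day 4 (-1.89 ± 0.10). All 3 were lower in each day 4 library than in any of day 1. The marker unc-54, the major myosin heavy chain, stood at 698, 463 and 556 CPM on day 1 and 209, 176 and 209.6 CPM on day 4 (-1.53 ± 0.14), and myo-3, the other body wall myosin heavy chain, fell less (-0.74 ± 0.20). pat-3, an integrin subunit gene, rose (0.44 ± 0.04), and it was joined by another member without day 1 replicate 1. Under total-count scaling 25 members fell and 3 rose. Adjusted p was between 8.51e-09 and 0.00587. In RNA of whole animals, fewer cells of a type and less RNA per cell cannot be told apart, and the same holds for a tissue that makes up a different share of the animal. Of 22 pharynx genes tested, 7 rose and 2 fell, or 11 and 2 under total-count scaling. Their share of counts was 0.0705% to 0.0821% on day 1 and lower on day 4, at 0.0539% to 0.0588%. The pharyngeal myosin genes myo-1 (0.57 ± 0.34) and myo-2 (0.84 ± 0.34) did not pass. Under total-count scaling myo-2 passed (adjusted p = 0.0243). Without day 1 replicate 1 both passed and the pharynx rises numbered 11, and without day 1 replicate 3 the falls numbered 1.

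Every tested gene of the cytosolic ribosome was lower on day 4. All 80 tested ribosomal protein genes fell, of 81 in the table, with log2 fold changes from -1.23 to -0.26 and a median of -0.94, and 79 fell under total-count scaling. Their share of all counts was 10.5% to 10.8% on day 1 and 6.1% to 6.49% on day 4. rps-13 (WBGene00004482, chromosome III, 6374048 to 6374997) had 1226, 1234 and 1199 CPM on day 1 and 607, 575 and 606 CPM on day 4 (-1.03 ± 0.04), and the replicates of each day lay close together. rps-17 (-0.94 ± 0.04) and rpl-29 (-0.89 ± 0.04) followed closely. eef-1A.1, the elongation factor that brings aminoacyl-tRNA to the ribosome, was at 14764, 14644 and 14952 CPM on day 1 and 10221, 9407 and 10294 CPM on day 4 (-0.57 ± 0.05). These 4 had adjusted p between 3.74e-09 and 8.97e-07 by edgeR. Of the 10 genes with the highest level per length over both days, 6 encode ribosomal proteins. These are rpl-41.2, rps-25, rps-8, rpl-10, rps-23 and rps-7, with log2 fold changes between -1.08 for rps-7 and -0.90 for rpl-10. The others were vit-6, vit-2, eef-1A.1 and ndk-1, a nucleoside diphosphate kinase gene (-0.45 ± 0.06).

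Genes of respiration were lower by smaller steps, and those of the proteasome, which breaks down proteins, were lower mainly under TMM scaling. Of 33 proteasome subunit genes 27 fell, none rose and 6 did not pass, with a median of -0.19. Under total-count scaling 7 fell and 5 rose, with a median of -0.01, and the list's share of counts overlapped between the days, at 1.02% to 1.07% on day 1 and 1.01% to 1.06% on day 4. In the TMM fit pas-3 (-0.38 ± 0.05), pbs-5 (-0.34 ± 0.05) and rpn-6.2 (-0.47 ± 0.07) had the smallest p. Of 52 nuclear genes of oxidative phosphorylation 47 fell, 1 rose and 4 did not pass, with a median of -0.41, and 39 fell and 3 rose under total-count scaling. nuo-6, a subunit gene of respiratory complex I, had 129, 124 and 125 CPM on day 1 and 86.5, 90.04 and 85.8 CPM on day 4 (-0.52 ± 0.04), and the days did not overlap. nduf-7 (-0.47 ± 0.04) and nuo-1 (-0.46 ± 0.04), of the same complex, fell alike. The exception was sdha-1 of complex II, which rose (0.17 ± 0.04). Among 12 protein-coding genes of the mitochondrial chromosome 8 fell and 1 rose, the rise being COX3 (0.25 ± 0.06), a cytochrome c oxidase subunit. The falls numbered 5 without day 1 replicate 1 and 3 under total-count scaling. The share of counts on these 12 genes overlapped between the days, at 0.544% to 0.605% on day 1 and 0.541% to 0.564% on day 4. All named had adjusted p between 1.94e-07 and 0.00279. Chaperones and import factors of the mitochondrial stress list went the same way, with 8 of 12 lower and none higher, or 5 and 2 under total-count scaling. The mitochondrial chaperonin gene hsp-60 had 766, 785 and 754 CPM on day 1 and 451, 427 and 433 CPM on day 4 (-0.81 ± 0.06), and timm-23, an import channel gene, fell too (-0.59 ± 0.05).

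**Figure D3:**
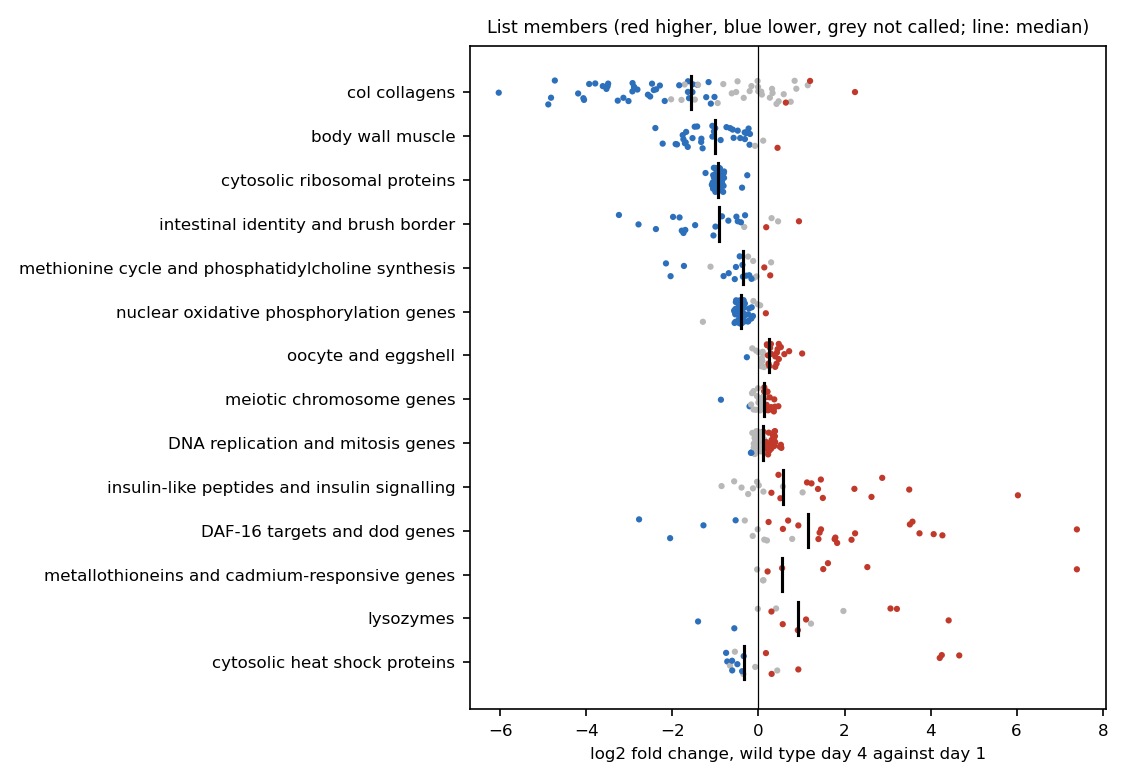
Points are the tested members of 14 lists with their log2 fold change of day 4 against day 1 in wild type, red where they rose, blue where they fell and grey where they did not pass, and the black line is the median. Members with no count in a group of the table are left out. Ribosomal protein genes form a narrow band near their median of -0.94, whereas col and DAF-16 target genes spread widely.

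The intestine, which digests food and makes yolk, had lower levels of transcripts of its absorptive surface on day 4. Of 22 genes of intestinal identity and brush border tested, 17 fell (77.3%), 2 rose and 3 did not pass, with a median of -0.92, and 16 fell and 4 rose under total-count scaling. pept-1 (WBGene00003877, chromosome X, 6456687 to 6461767), the transporter that takes up peptides from the gut lumen, had 157, 121 and 132 CPM on day 1 and 21.8, 21.6 and 15.8 CPM on day 4 (-2.79 ± 0.13). act-5, the actin of intestinal microvilli, had 380.3, 316 and 329.8 CPM on day 1 and 104, 82.7 and 102 CPM on day 4 (-1.83 ± 0.14). Neither gene overlapped between the days. The acid phosphatase gene pho-1 (-2.38 ± 0.14) and erm-1, an ezrin-family gene of the apical membrane (-0.51 ± 0.03), also fell. elt-2, the GATA factor of intestinal identity, fell by less, with 11.6, 8.44 and 10.5 CPM on day 1 and 7.34, 8.5 and 7.14 CPM on day 4 (-0.41 ± 0.12). Its call was lost without day 1 replicate 1 or day 4 replicate 1 or 3, with adjusted p from 0.0508 to 0.074, and under total-count scaling (adjusted p = 0.161). The esterase gene ges-1 rose (0.94 ± 0.06). Adjusted p ran from 5.35e-09 to 0.0133. vha-6, the intestinal subunit of the proton pump, fell in the list of vacuolar ATPase, lysosome and autophagy genes (-1.70 ± 0.13, adjusted p = 1.9e-07 by edgeR). That list of 58 held 30 rises and 20 falls: vha-5 (-1.63 ± 0.10) and vha-3 (-1.23 ± 0.08) fell, and the autophagy genes atg-16.2 (0.63 ± 0.05), lgg-2 (0.49 ± 0.04) and bec-1 (0.56 ± 0.05) rose.

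Yolk protein genes were lower, unevenly so. Of the 6 vitellogenin genes 4 fell, and vit-5 and vit-6 did not pass. No day 4 value of any of the 6 reached the day 1 range, and 30.6% of all tested genes were lower without overlap. The spread behind each standard error was estimated over all 12 libraries, mutants included. In mutants on day 1 these genes took 0.262%, 0.551% and 0.423% of counts, relatively more spread than in wild type. Of the genes named by the rule given below, 5 that did not pass gained a call with only the wild type libraries fitted. Both vit-5 and vit-6 are in the set from which these came, so their lack of a call does not show that they were unchanged. vit-1 (WBGene00006925, chromosome X, 7727889 to 7733168) had 4535, 3982 and 4755 CPM on day 1 and 734, 819 and 654 CPM on day 4 (-2.59 ± 0.23, edgeR, adjusted p = 7.94e-07). vit-3 had 2401, 2429 and 2477 CPM on day 1 and 714, 850.02 and 596 CPM on day 4 (-1.76 ± 0.31, adjusted p = 0.000332), and vit-4 had 1875, 1785 and 1894 CPM on day 1 and 980.04, 1069.6 and 789.7 CPM on day 4 (-0.97 ± 0.20, adjusted p = 0.0012). For each of these 3 the highest day 4 value was below the lowest of day 1. vit-2 had 23199, 20326 and 21608 CPM on day 1 and 16494, 15888 and 13165 CPM on day 4 (-0.52 ± 0.17, adjusted p = 0.0218), and its call was lost without day 1 replicate 1, day 1 replicate 3 or day 4 replicate 3, with adjusted p from 0.0523 to 0.0917, and under total-count scaling (adjusted p = 0.0982). vit-6 stood at 32334, 27882 and 29682 CPM on day 1 and 24523, 24896 and 21782 CPM on day 4 (-0.34 ± 0.35, adjusted p = 0.445), and vit-5 at 10058, 9505 and 9850.2 CPM on day 1 and 8658, 9026 and 7562 CPM on day 4 (-0.22 ± 0.39, adjusted p = 0.658). vit-1 and vit-2, and vit-3, vit-4 and vit-5, are near-identical copies whose shared reads were not counted, so the split among them is uncertain. The share of all counts on the 6 genes was 6.87%, 6.02% and 6.40% on day 1 and 5.33%, 5.48% and 4.69% on day 4. It went from 6.43% ± 0.426 to 5.17% ± 0.421 (SD, n = 3), a difference of -1.27 percentage points, with p = 0.1 in a two-sided exact permutation test, the smallest that 3 against 3 libraries can give. dsc-4, which encodes a lipid transfer protein for yolk lipoprotein assembly, fell (-1.32 ± 0.09, adjusted p = 1.16e-07). The yolk receptor gene rme-2 of the oocyte stood at 1434, 1589.7 and 1580.2 CPM on day 1 and 1638, 1512 and 1454 CPM on day 4 (0.00 ± 0.08) and did not pass, though it was called higher under total-count scaling (adjusted p = 0.0212).

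**Figure D4:**
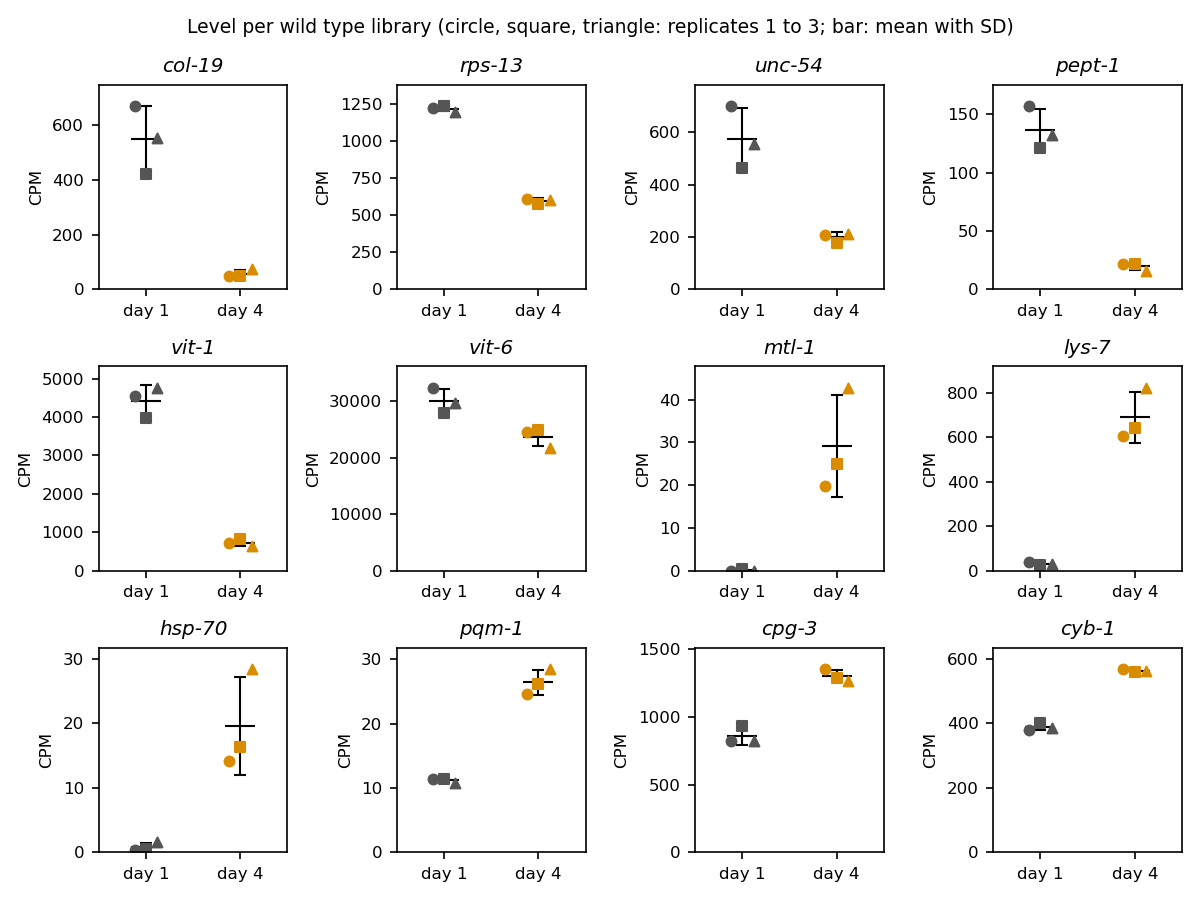
Each panel gives the level of a gene in CPM in the 6 wild type libraries, with circles, squares and triangles for replicates 1 to 3 and a bar for the mean with its SD (n = 3). All axes start at 0. Days are fully separated in each of the 12 panels, by a wide margin for col-19, pept-1 and lys-7 and narrowly for vit-6. Of all tested genes, 33.6% are separated as higher and 30.6% as lower on day 4.

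Digestive and lysosomal proteases changed in opposite directions within their families. Of 11 cathepsin genes 4 rose and 5 fell. cpr-1, a cathepsin B gene, had 66.7, 60.3 and 56.4 CPM on day 1 and 375, 346 and 359 CPM on day 4 (2.56 ± 0.09), a fitted rise of 5.89-fold. cpr-5, of the same family, had 172, 176 and 219 CPM on day 1 and 37.9, 31.4 and 23.6 CPM on day 4 (-2.60 ± 0.17). The days did not overlap for either gene. cpr-4 (1.46 ± 0.10) and cpr-3 (1.03 ± 0.13) rose, and cpr-9 (-1.08 ± 0.07) and cpl-1 (-1.02 ± 0.10), a cathepsin L gene, fell. Of 12 aspartyl protease genes 2 rose and 7 fell. asp-1 was among the most abundant, with 1707, 1635 and 1717 CPM on day 1 and 516, 494 and 440.5 CPM on day 4 (-1.80 ± 0.09). asp-3 (-1.16 ± 0.08) and asp-2 (-1.08 ± 0.08) fell as well, and asp-4 (0.44 ± 0.06) rose beside asp-17. Adjusted p of these 10 genes was between 7.58e-10 and 4.62e-05 by edgeR.

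Lipid genes changed in distinct subgroups. In the methionine cycle and phosphatidylcholine synthesis, which supplies methyl groups and membrane lipid, 13 of 21 fell and 2 rose, with a median of -0.36. pmt-2, a phosphoethanolamine methyltransferase gene, had 401, 367 and 413 CPM on day 1 and 100.4, 109 and 76.7 CPM on day 4 (-2.04 ± 0.12). sams-1, an S-adenosylmethionine synthetase gene chosen after its values were seen, had 239.6, 201 and 219 CPM on day 1 and 58.6, 58 and 31.5 CPM on day 4 (-2.15 ± 0.18), so that both fell by about the same factor and without overlap. ahcy-1 (-0.81 ± 0.05) and cept-1 (-1.73 ± 0.13) fell, and the small rises of cbs-1 (0.27 ± 0.10) and cept-2 (0.14 ± 0.05) were both lost without day 1 replicate 2 or day 4 replicate 2. The call of cbs-1 was also lost without day 4 replicate 3, and that of cept-2 without day 1 replicate 1 or 3 or day 4 replicate 1, so that 1 rise was left in each of these cases. Of 60 genes of fatty acid activation and beta-oxidation 29 fell (48.3%) and 12 rose, with a median of -0.27, or 24 and 19 under total-count scaling. The acyl-CoA oxidase gene acox-1.3 (-4.49 ± 0.20) and the acyl-CoA synthetase gene acs-5 (-1.68 ± 0.10) fell beside acdh-2, and acdh-10 (0.57 ± 0.04) and acdh-7 (0.63 ± 0.05), acyl-CoA dehydrogenase genes, rose. Fatty acid desaturase and elongase genes split, with 5 rises and 9 falls among 21, and 8 of each under total-count scaling. fat-5, a palmitic acid desaturase gene, had 30.2, 32.8 and 29.6 CPM on day 1 and 77, 83.1 and 90.3 CPM on day 4 (1.44 ± 0.08), and elo-2, a fatty acid elongase gene, had 237, 193 and 206 CPM on day 1 and 62.1, 67.7 and 45.3 CPM on day 4 (-1.86 ± 0.13). The former was higher and the latter lower in every day 4 library.

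Of 6 lysosomal lipase genes 4 rose and none fell, with a median of 0.71. lipl-5 had 182, 154 and 165 CPM on day 1 and 259, 259.7 and 268 CPM on day 4 (0.65 ± 0.07), and the scarce lipl-1 (4.14 ± 0.45) and lipl-2 (3.35 ± 0.28) rose more steeply. Among 16 lipid-binding protein genes 5 rose and 5 fell, or 8 and 2 under total-count scaling, with 3 rises left without day 4 replicate 1 and 3 falls without day 4 replicate 3. far-3 of the fatty acid and retinol binding family rose (2.62 ± 0.35), and lbp-6 of the fatty acid binding family fell (-1.44 ± 0.08). Adjusted p of the lipid genes named here and of those in the methionine, oxidation and desaturation lists was between 3.74e-09 and 0.0326 by edgeR, the largest being that of cbs-1.

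Oocyte, meiotic and cell division genes counted more rises than falls, most of them small, and many members did not pass. Of 31 oocyte and eggshell genes 19 rose (61.3%), 1 fell and 11 did not pass, with a median of 0.23, and 28 rose and none fell under total-count scaling. cpg-3, which encodes a chondroitin proteoglycan of the eggshell, had 819, 929 and 817 CPM on day 1 and 1347, 1283 and 1262 CPM on day 4 (0.60 ± 0.07). perm-4 (0.43 ± 0.05), needed for the permeability barrier of the egg, and pos-1 (0.52 ± 0.07), an RNA-binding factor of the early embryo, rose too. The oocyte markers oma-1 (0.20 ± 0.05) and oma-2 (0.39 ± 0.07) rose, while egg-1 (0.10 ± 0.06), chs-1 (0.11 ± 0.07) and cbd-1 (-0.05 ± 0.08) did not pass, so that the list did not move as a block. chs-1 passed without day 4 replicate 3 (adjusted p = 0.0382), and both chs-1 and egg-1 passed as higher under total-count scaling. The single fall was lin-41 (-0.27 ± 0.07), which did not pass under total-count scaling (adjusted p = 0.197), and there were 2 falls without day 4 replicate 1. Of 35 meiotic chromosome genes 18 rose, 2 fell and 15 did not pass, with a median of 0.14, and 28 rose and 1 fell under total-count scaling. syp-1, a synaptonemal complex gene, had 56.6, 59.8 and 62.3 CPM on day 1 and 75.7, 76.6 and 78.3 CPM on day 4 (0.37 ± 0.05), and the meiotic kinase gene chk-2 fell, with 20.5, 19.7 and 18 CPM on day 1 and 11.1, 10.7 and 10.003 CPM on day 4 (-0.87 ± 0.07). The 2 days did not overlap for either. Without day 1 replicate 1 there were 5 falls in that list. Of 64 DNA replication and mitosis genes 30 rose, 2 fell and 32 did not pass, with a median of 0.11, and 57 rose and none fell under total-count scaling. cyb-1, a cyclin B gene, had 380.2, 400.4 and 386 CPM on day 1 and 567, 559 and 561 CPM on day 4 (0.53 ± 0.05), and mcm-10 (0.52 ± 0.04), a replication gene, was close to it. The falls were knl-2 (-0.17 ± 0.05) and zyg-8 (-0.16 ± 0.05), and 1 was left without day 1 replicate 3. Under total-count scaling neither passed, and both had the opposite sign. Adjusted p of the called genes was between 1.45e-07 and 0.012.

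Germ granule and small RNA genes were divided: of 43 tested, 11 rose and 16 fell, with a median of -0.04, whereas 22 rose and 10 fell under total-count scaling. glh-1, the helicase gene of germ granules, had 669, 661 and 651 CPM on day 1 and 394, 369 and 402 CPM on day 4 (-0.77 ± 0.04), and the Argonaute gene csr-1 had 753, 784 and 768 CPM on day 1 and 444, 432 and 426 CPM on day 4 (-0.82 ± 0.05). Both were lower in every day 4 library. The germ granule genes meg-2 (0.65 ± 0.06) and meg-4 (0.58 ± 0.06) and the maternal nanos gene nos-2 (0.61 ± 0.06) rose instead, and the germ line marker pgl-1 (-0.04 ± 0.05) did not pass, though it was called higher under total-count scaling (adjusted p = 0.00208). Adjusted p of the called ones was between 2.32e-08 and 6.47e-06 by edgeR.

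Transcripts of embryos carried in the uterus and of offspring on the plate can be part of whole-animal RNA, and their markers were examined beside the germ line lists. Of 39 early zygotic genes 10 rose and 11 fell, near the shares of all genes, and the falls numbered 7 without day 1 replicate 1. Under total-count scaling 13 rose and 7 fell. The paralogous T-box genes tbx-38 and tbx-37 of the early embryo rose (3.01 ± 0.26 and 2.57 ± 0.29), with an uncertain split between them. tbx-38 had 0.96, 1.35 and 1.07 CPM on day 1 and 7.3, 8.35 and 11.7 CPM on day 4, with no overlap. end-1, a GATA factor gene of the endoderm, fell (-2.67 ± 0.36) from a level already under 1 CPM, and pes-10 stood at 10.1, 8.7 and 10.1 CPM on day 1 and 7.57, 10.6 and 11 CPM on day 4 and did not pass (0.02 ± 0.15). Of 25 embryonic lineage factors 8 rose and 12 fell, with a median of -0.41, and the falls numbered 7 without day 1 replicate 1 or 3. Under total-count scaling 10 rose and 7 fell. hlh-1, the MyoD homolog, fell (-1.76 ± 0.34), and the seam cell GATA factor gene elt-6 rose (1.61 ± 0.26). Of 24 larval molting genes 3 rose, 4 fell and 17 did not pass, and 2 falls were left without day 1 replicate 2, day 1 replicate 3 or day 4 replicate 3. Under total-count scaling 5 rose and 2 fell. nas-37, a protease gene used in molting, fell (-1.45 ± 0.10), whereas mlt-10 (0.06 ± 0.14), fbn-1 (-0.21 ± 0.50) and qua-1 (0.92 ± 0.56) did not pass and noah-1 had 13.9, 7.99 and 12.7 CPM on day 1 and 6.35, 9.56 and 11.9 CPM on day 4 (-0.32 ± 0.39). Adjusted p of the called genes was between 1.18e-07 and 0.000745. The part of offspring in the other results was not tested.

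Major sperm protein genes, which the hermaphrodite expresses while it makes sperm before adulthood, were near the floor on both days. Of 31 listed, 19 were tested, and none rose or fell by edgeR, with a median of -0.54. Unadjusted p was under 0.05 for 0 of them, DESeq2 called 0, and edgeR without day 4 replicate 2 called 3 as lower. Of 34 other sperm genes 8 rose and 2 fell, the falls numbering 4 without day 1 replicate 3 and 1 under total-count scaling. spe-5 (0.59 ± 0.08, adjusted p = 2.74e-05 by edgeR) and fer-1 (1.58 ± 0.24, adjusted p = 0.000112) rose, the latter from 0.611, 1.03 and 0.83 CPM on day 1 and 2.28, 2.76 and 2.37 CPM on day 4.

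Insulin signalling genes leaned upward. Of 23 tested 13 rose (56.5%), none fell and 10 did not pass, with a median of 0.57, and 1 fell without day 4 replicate 3. The kinase genes akt-2 and pdk-1, which act below the insulin receptor, had 7.2, 6.55 and 6.35 CPM on day 1 and 15.8, 17.1 and 19.6 CPM on day 4 (1.38 ± 0.11) and 17, 16.7 and 15 CPM on day 1 and 34.8, 36.4 and 35.7 CPM on day 4 (1.13 ± 0.10). Each day 4 value was above each day 1 value. The receptor gene daf-2 rose by a small step (0.47 ± 0.05). The insulin-like gene ins-7 rose further, with 0.567, 0.224 and 0.293 CPM on day 1 and 2.31, 1.73 and 2.82 CPM on day 4 (2.63 ± 0.41). These last 2 genes were chosen after their values were seen. daf-16 itself stood at 179, 179.5 and 182 CPM on day 1 and 205, 198 and 183 CPM on day 4 (0.12 ± 0.06, adjusted p = 0.0959 by edgeR) and did not pass, though it did without day 4 replicate 3 (adjusted p = 0.0263) and under total-count scaling (adjusted p = 3.49e-05). The zinc finger gene pqm-1 had 11.4, 11.4 and 10.8 CPM on day 1 and 24.7, 26.1 and 28.4 CPM on day 4 (1.23 ± 0.07, adjusted p = 1.75e-08), a fitted level 2.35-fold higher on day 4. skn-1, a stress response factor that is also maternal, rose by a small step (0.21 ± 0.04), and ceh-60 had 6.76, 5.56 and 6.64 CPM on day 1 and 4.59, 5.09 and 4.65 CPM on day 4 (-0.40 ± 0.17, adjusted p = 0.0623) and did not pass. Like vit-5 and vit-6, daf-16 and ceh-60 are in the set of named genes from which 5 gained a call with only the wild type libraries.

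Genes listed as targets of DAF-16 or named as downstream of it counted more rises than falls. Of 29 tested 19 rose (65.5%), 4 fell and 6 did not pass, with a median of 1.39, also with dct-8 at its lower bound. dod-19 had 112, 103 and 99.7 CPM on day 1 and 325, 339 and 425 CPM on day 4 (1.79 ± 0.09), and dct-1, a gene for a mitophagy receptor, had 11.5, 10.6 and 10.4 CPM on day 1 and 26.1, 28.8 and 32.4 CPM on day 4 (1.42 ± 0.11). The falls included dct-18, with 171, 131 and 160.02 CPM on day 1 and 23.2, 22 and 22.4 CPM on day 4 (-2.77 ± 0.13), and dct-16 (-1.28 ± 0.10), both without overlap. sod-3, a mitochondrial superoxide dismutase gene widely used as a DAF-16 readout and chosen after its values were seen, stood at 3.1, 2.29 and 1.9 CPM on day 1 and 1.57, 1.79 and 2.53 CPM on day 4 (-0.32 ± 0.28, adjusted p = 0.353) and did not pass. Adjusted p of the called ones was between 4.17e-09 and 3.39e-07. The list holds genes of both directions known from insulin mutants.

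Stress genes split by the kind of protein. Inducible small heat shock proteins rose from almost none: hsp-16.2 had 0.131, 0.224 and 0.781 CPM on day 1 and 5.06, 4.44 and 12.1 CPM on day 4 (4.26 ± 0.78), and hsp-16.41, a close copy chosen after its values were seen, had 0.131, 0.269 and 0.635 CPM on day 1 and 3.92, 5 and 10.2 CPM on day 4 (4.21 ± 0.80). Their highest day 1 value was in replicate 3, as was that of hsp-70. The abundant chaperones fell, as hsp-1, a constitutive Hsp70 gene, with 4963, 5372 and 5617 CPM on day 1 and 3342, 3123 and 3192 CPM on day 4 (-0.72 ± 0.06). hsp-90 (-0.61 ± 0.06), also chosen after its values were seen, and hsp-110 (-0.75 ± 0.05) fell as well. Of 18 cytosolic heat shock genes 6 rose and 7 fell. sip-1, a small heat shock protein gene of oocytes and embryos, stood apart with 815, 981 and 918 CPM on day 1 and 1728, 1602 and 1830.3 CPM on day 4 (0.93 ± 0.07), at a high level on both days. Of 20 endoplasmic reticulum chaperone genes 6 rose and 10 fell, whereas 10 rose and 3 fell under total-count scaling, the unfolded protein sensor gene pek-1 (0.72 ± 0.05) being higher and the BiP gene hsp-4 (-0.45 ± 0.05) lower. Adjusted p was between 5.34e-08 and 0.000595. Metallothionein and cadmium-responsive genes rose in 6 of 9 cases and fell in none, among them mtl-2, with 1.96, 2.42 and 2.93 CPM on day 1 and 15.3, 14.6 and 12.2 CPM on day 4 (2.53 ± 0.19, adjusted p = 1.8e-07), and cdr-2 (1.51 ± 0.14). Of 16 antioxidant enzyme genes tested 2 rose and 5 fell, whereas 8 rose and 3 fell under total-count scaling, with the methionine sulfoxide reductase gene msra-1 at 112, 131 and 126 CPM on day 1 and 39, 34.4 and 17.5 CPM on day 4 (-2.01 ± 0.19). It was lower in each day 4 library.

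Detoxification families went different ways. Of 60 cytochrome P450 genes 24 rose and 6 fell, with a median of 0.29, whereas among 37 glutathione transferase genes 6 rose and 16 fell and among 54 UDP-glucuronosyltransferase genes 10 rose and 21 fell. Under total-count scaling the last of these lists counted 14 rises and 17 falls. cyp-37B1 rose from near 0, with 0.175, 0.0449 and 0.146 CPM on day 1 and 4.98, 4.15 and 6.64 CPM on day 4 (5.36 ± 0.36), beside cyp-13A5. gst-26 (-1.37 ± 0.10) and gst-27 (-1.27 ± 0.10) fell, and gstk-1 rose, with 15.6, 14.3 and 13.8 CPM on day 1 and 34.4, 40.4 and 46 CPM on day 4 (1.47 ± 0.11). ugt-47 (-1.91 ± 0.12) and ugt-46 (-1.36 ± 0.10) fell and ugt-54 (2.06 ± 0.19) rose. All 6 of these had adjusted p of between 5.02e-08 and 1.03e-06 by edgeR. Nuclear hormone receptors, some of which regulate these families, counted 44 rises and 25 falls among 172, with 15 falls without day 1 replicate 1 and 10 under total-count scaling. nhr-114, a receptor of intestine and germ line, had 179, 149 and 162 CPM on day 1 and 26.8, 22.6 and 12.7 CPM on day 4 (-2.97 ± 0.19, adjusted p = 5.63e-08), lower in every day 4 library.

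Defence genes were higher in several families. Of 13 lysozyme genes 7 rose, 2 fell and 4 did not pass, with a median of 0.92, and 1 fall was left without day 1 replicate 2 or 3 or day 4 replicate 2 or 3, with DESeq2, with no filter on low counts and under total-count scaling. Beside lys-7, lys-2 had 62.9, 75 and 59.9 CPM on day 1 and 113, 124 and 137 CPM on day 4 (0.92 ± 0.08). Of 22 genes of the PMK-1 pathway and its targets 13 rose, 2 fell and 7 did not pass, with a median of 0.54, and the falls numbered 4 with no filter on low counts and 1 under total-count scaling. The PMK-1 target gene sysm-1 had 4.67, 4.08 and 5.81 CPM on day 1 and 36.7, 42.5 and 38.1 CPM on day 4 (3.02 ± 0.21), higher in every day 4 library, and the phosphatase gene vhp-1, which restrains the kinase pathway, rose too (0.91 ± 0.08). The 2 falls were hsp-43 (-0.61 ± 0.11) and clec-67 (-0.76 ± 0.25), and clec-67 lost its call without day 1 replicate 1 or day 4 replicate 1 or 2, with adjusted p from 0.0636 to 0.119, and under total-count scaling (adjusted p = 0.0614). Of 35 intracellular pathogen response genes 14 rose, 3 fell and 18 did not pass, with a median of 0.39 and 1 fall without day 4 replicate 3, with DESeq2, with no filter on low counts and under total-count scaling. skr-4, a gene for a ubiquitin ligase component, had 9.16, 10.3 and 8.5 CPM on day 1 and 24.9, 28.6 and 29 CPM on day 4 (1.56 ± 0.13). C-type lectin genes counted 27 rises and 19 falls among 99, and saposin-like genes 7 and 6 among 20, both close to the shares of all genes. clec-41 had 78.9, 66.1 and 68.4 CPM on day 1 and 203, 181 and 221 CPM on day 4, a fitted level 2.84-fold higher, and spp-17 had 285, 274 and 258 CPM on day 1 and 118, 131 and 94.5 CPM on day 4 (-1.25 ± 0.14). The former was higher and the latter lower in all day 4 libraries. Adjusted p was between 1.8e-08 and 0.0202.

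Neuronal genes moved in both directions. Of 28 synapse genes 7 rose (25%) and 4 fell (14.3%), and of 75 neuropeptide and processing genes 11 rose (14.7%) and 16 fell (21.3%). Over all tested genes the shares were 28.4% and 26.3%, so synapse rises and neuropeptide falls were not far from them. Under total-count scaling these counts were 11 and 1 for synapse genes and 16 and 9 for neuropeptides. The marker snb-1, a synaptobrevin gene, had 138, 138 and 132 CPM on day 1 and 176, 168 and 172 CPM on day 4 (0.34 ± 0.03, adjusted p = 2.35e-06 by edgeR), and rab-3 (0.04 ± 0.19) did not pass. These counts also moved with single libraries. Neuropeptide rises numbered 19 without day 1 replicate 1 and 7 without day 1 replicate 2 or 3. Synapse rises numbered 3 without day 1 replicate 2 and 4 without day 4 replicate 1 or 3, and synapse falls 1 or 2 without any library but day 4 replicate 1. pdf-1, a neuropeptide gene of locomotion, rose from 2.57, 2.69 and 2.05 CPM on day 1 and 7.85, 8.7 and 9.26 CPM on day 4 (1.81 ± 0.19, adjusted p = 3.06e-06).

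Whether the wild type age change also occurred without ceh-60 was asked with the mutant libraries, which share no sample with the wild type comparison. In ceh-60 mutants 3718 genes rose (28.3%) and 3191 fell (24.3%) from day 1 to day 4. Of the 7193 genes called in wild type, 6836 (95%) had a change of the same sign in the mutant. Over all 13137 tested genes the same sign was seen for 10950 (83.4%). The difference of the age change itself, tested as an interaction, passed for 531 of 13137 genes (4.04%), of which 239 were higher (1.82%) and 292 lower (2.22%) in the mutant. The higher ones numbered only 116 to 148 without wild type day 1 replicate 1 or 3, any wild type day 4 library, or ceh-60 day 4 replicate 1 or 2. The lower ones numbered 169 without wild type day 1 replicate 3 and 191 without ceh-60 day 1 replicate 1. Among the 429 genes called both in wild type and for the difference, 291 had the same sign in the mutant, whether or not they passed there. Only the interaction is a test of the difference, and a gene called in a single genotype is not counted as differing.

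**Figure D5:**
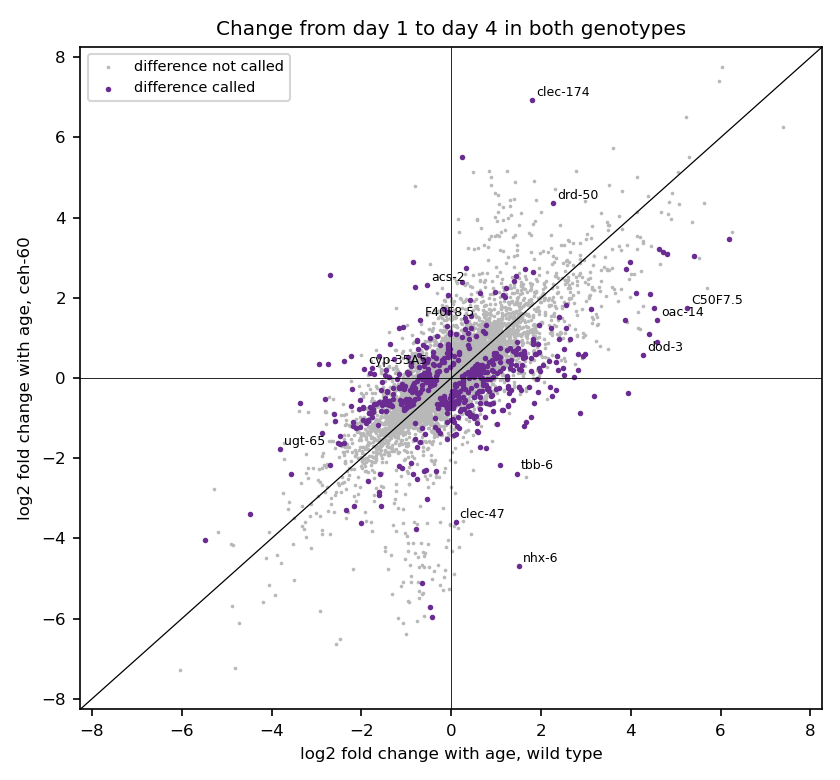
Each point is a tested gene, with its log2 fold change of day 4 against day 1 in wild type on the x axis and in ceh-60 mutants on the y axis, and the diagonal marks equal change. Purple points are genes whose difference of change passed, and genes with no count in a group are left out. Most genes lie along the diagonal, and dod-3 and C50F7.5 are far below it.

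Several of the leading wild type rises were smaller in the mutant. The difference for lys-7 was -2.32 ± 0.20 (adjusted p = 4.27e-05), with 147 ± 17.8 CPM on day 1 and 630.2 ± 19.2 on day 4 in the mutant, which already started high. dod-3 was at 5.75 ± 4.12 and 8.61 ± 0.906 CPM in the mutant (difference -3.70 ± 0.58), and C50F7.5 at 4.07 ± 1.06 and 13.6 ± 1.89 (-3.50 ± 0.57). The day 1 level of both was higher in the mutant than in wild type, where it was 0.829 ± 0.303 and 1.48 ± 1.02 CPM. For mtl-1 the mutant gave 6.26 ± 0.45, and the difference did not pass (-1.14 ± 1.09, adjusted p = 0.655). col-93 gave -7.29 ± 0.43 in the mutant (difference -1.25 ± 0.71, adjusted p = 0.397). The difference passed for 10 ribosomal protein genes, from 0.21 ± 0.05 for rpl-29 to 0.31 ± 0.08 for rpl-1, all small beside the falls themselves. rpl-1 was chosen after its values were seen. The call of the difference was lost on leaving out any of the 12 libraries for rpl-29, and any but 2 for rpl-1. vit-3 changed by 0.26 ± 0.33 in the mutant against -1.76 ± 0.31 in wild type (difference 2.01 ± 0.45, adjusted p = 0.0262), and vit-2 by 0.46 ± 0.17 against -0.52 ± 0.17 (0.98 ± 0.24, adjusted p = 0.0412). The difference of vit-3 was lost without day 1 replicate 1 or 3 or day 4 replicate 1 or 3 of wild type, or without day 1 replicate 3 or day 4 replicate 1 or 2 of the mutant (adjusted p from 0.0513 to 0.0796). That of vit-2 was lost without any wild type library or the same 3 of the mutant (adjusted p from 0.0665 to 0.119). pqm-1 rose less in the mutant (-0.54 ± 0.09, adjusted p = 0.00537), from 29.96 ± 0.859 to 48.4 ± 2.55 CPM. acs-2, an acyl-CoA synthetase gene that fell in wild type (-0.54 ± 0.15) but not under total-count scaling (adjusted p = 0.0572), had the opposite sign in the mutant (2.33 ± 0.15, difference 2.86 ± 0.21, adjusted p = 1.78e-05). All p-values of differences are from edgeR, adjusted over all genes tested.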

How the data were processed

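Libraries were made from 1 µg of total RNA of whole worms with the TruSeq v2 kit, per the labels' protocols, and this kit does not mark strand. The submitters' processing notes name STAR 2.5.4 for alignment, and the file headers name featureCounts 1.5.2 for counting. The authors deposited raw, whole-number counts for each gene of WormBase release 260. The counting took no account of strand and dropped multimapping reads and those shared between genes, per the file headers, which leaves values of near-identical or overlapping genes uncertain. The table holds 46778 genes, and symbols were found for 43818.

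From these counts, edgeR 4.0.16 in R 4.3.3 was fitted to the 12 libraries of 4 groups: filterByExpr by group (minimum count 10) left 13137 genes, and TMM scaling (factors 0.911 to 1.12), quasi-likelihood F-tests and Benjamini-Hochberg adjustment at 0.05 followed. The biological coefficient of variation was 0.0838 with 8 residual degrees of freedom, and standard errors come from the F statistic. The fit was tested first on simulated counts with 200 genes changed, evenly in both directions. It recovered 54% of them at a log2 step of 0.585 and 70.5% at a step of 1, with 10 and 4 false calls. So few and balanced changes do not test the choice of scaling. Replicates of a group differed by more than sampling noise (chi-square per degree of freedom 3.51 or more).

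The comparison, gene lists and tests were chosen with earlier results of these data known. Genes were named by a rule: the 12 largest rises and falls whose mean reached 5 CPM and whose days did not overlap, the vit genes, ceh-60, pqm-1, daf-16 and skn-1, up to 3 rising and 3 falling members of each of 53 lists by smallest p, the 10 most abundant per length, and the 6 largest genotype differences each way. Tissue markers were listed beside it. The serpentine chemoreceptor list was narrowed after the table had been read. Alternatives were RLE size factors, DESeq2 1.42.0, no filter on low counts, only the wild type libraries, a replicate block, and fits without each library in turn. Scaling to total counts was added after the values were seen. No sequences are shown, as no sequence table was used here.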

Additional observations from a re-analysis of the deposited data

Results flagged for a closer look

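Among the genes named here, 57 had an age change that differed between wild type and ceh-60 mutants by the interaction test of edgeR (adjusted p under 0.05 over all genes tested), and each is given with the change in the mutant minus that in wild type on the log2 scale. Of these, 28 were lower and 29 higher in the mutant. For 31 the call held in each of the 12 fits that left out a library.

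Those lower in the mutant whose call held were nhx-6 (-6.20), tbb-6 (-3.84), dod-3 (-3.70), clec-47 (-3.70), C50F7.5 (-3.50), oac-14 (-3.13), cyp-13A5 (-2.76), lys-7 (-2.32) and clec-41 (-1.74), followed by cdr-2 (-1.73), dod-19 (-1.61), msra-1 (-1.61), Y47H10A.5 (-1.40), lys-2 (-1.34), fbxa-60 (-0.84), fat-5 (-0.73), cpr-1 (-0.72), COX3 (-0.72), pqm-1 (-0.54) and sdha-1 (-0.29). In this set are the immune genes lys-7, lys-2, clec-41 and clec-47, the protease gene cpr-1 and the desaturase gene fat-5, which also rose in wild type except for clec-47. Higher in the mutant, with a call that held, were asp-4 (0.81), asp-3 (0.93), acs-5 (1.03), asp-1 (1.07), sri-40 (1.46), clec-67 (1.70), cpr-5 (1.71), ugt-65 (2.05), drd-50 (2.09), F40F8.5 (2.14) and acs-2 (2.86). The lysosomal protease genes asp-1, asp-3 and cpr-5, which fell in wild type, are among them, and asp-4, which rose there.

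For the other 26 the call was lost without between 1 and 12 of the libraries taken singly. Of these, F15B9.6 (-2.73), F08G2.5 (-1.57), akt-2 (-0.70), cpr-4 (-0.57), vhp-1 (-0.49), ges-1 (-0.37), ahcy-1 (-0.32) and acdh-10 (-0.22) were lower in the mutant. Higher were rpl-29 (0.21), rps-17 (0.25), rps-8 (0.26), rps-13 (0.26), rpl-41.2 (0.28), csr-1 (0.29), rpl-1 (0.31), col-101 (0.46) and rpn-6.2 (0.46), and nas-37 (0.62), pho-1 (0.75), elo-2 (0.81), vit-2 (0.98), acox-1.3 (1.11), Y48E1B.8 (1.17), vit-3 (2.01), cyp-35A5 (2.17) and clec-174 (5.15). The call was lost in 7 or more of the 12 fits for 18 of these 26. The other 8 were F15B9.6, F08G2.5, akt-2, cpr-4, vhp-1, ges-1, acdh-10 and clec-174, and clec-174 lost it without wild type day 1 replicate 2 or 3.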

How the results depend on the processing

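The counts in wild type depended on the scaling. With libraries scaled to total counts, an alternative added after the values were seen, rises numbered 5733 and falls 2261, against 3735 and 3458, and the median over all tested genes moved by 0.18 (log2). Of the 7193 calls, 6003 were shared with that fit, 5996 of them with the same direction. Of the genes named by the rule, knl-2 (0.0079), zyg-8 (0.025) and unc-18 (0.023) turned from falls to values that did not pass, 18 others lost their call and daf-16 gained one. Under the other alternatives, rises numbered between 3386 with DESeq2 and 3911 with the replicate block, and falls between 3241 with no filter on low counts and 3588 with the block. Leaving out a library gave 3327 to 3471 rises and 3081 to 3199 falls. Of the 7193 calls, 7146 were shared with the block, 6651 with DESeq2 and 6215 to 6444 with the fits that left out a library, all with the same direction. These alternatives shifted the median over all tested genes by at most 0.0149 (log2). The replicate numbers were taken to pair no libraries: deviations of same-numbered libraries correlated by -0.0481, 0.412 and 0.198, and 4 of 6 libraries were closest to their own number. Counts within lists moved by over 1.5 times in many cases, under total-count scaling, without single libraries and under the other alternatives. The block gave 10 falls of cytochrome P450 genes, against 6, and 4 of the PMK-1 list, against 2. With only the wild type libraries, body-shape collagens counted 4 rises and 1 fall and the oocyte list 2 falls. In that fit 5 of the genes named by the rule gained a call and 1 lost its call. The genes open to such a gain, not called in the main fit, included vit-5, vit-6, ceh-60 and daf-16. Methionine cycle genes counted 1 rise with RLE size factors or DESeq2, synapse genes 4 rises with DESeq2, and serpentine receptors 24 rises and 8 falls with no filter.

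The count of differences between genotypes was less stable. Leaving out a library gave 116 to 219 higher and 169 to 348 lower differences, against 239 and 292, and no filter on low counts gave 567 lower. The vitellogenin share differed by -1.47 to -1.03 percentage points in the same fits. Of the 300 genes named by the rule, clec-47 in wild type changed sign, from 0.10 to -0.12 without day 1 replicate 1, passing in neither case, and its highest value was 0.24 without day 1 replicate 3. The cause was not tested.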

Other observations

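Some families lay outside the comparisons above. Transthyretin-like genes, a nematode family of secreted proteins, counted 20 rises and 9 falls among 46 tested, with a median log2 fold change of 0.28. ttr-51 had 84.1, 79.8 and 80.3 CPM on day 1 and 231, 243 and 326 CPM on day 4 (1.71 ± 0.14) and ttr-45 rose alike (1.59 ± 0.17), whereas ttr-42 fell, with 39.7, 38 and 32.8 CPM on day 1 and 12.9, 13.1 and 11.7 CPM on day 4 (-1.55 ± 0.09). The days did not overlap for these genes. F-box and BTB-MATH genes, which encode adaptors of ubiquitin ligases, counted 74 rises and 46 falls among 289, with 30 falls without day 4 replicate 1 or 2 and 27 with libraries scaled to total counts. fbxa-60 rose (1.43 ± 0.09) and math-4 fell (-1.61 ± 0.15). Among serpentine chemoreceptor genes 37 of 1310 could be tested, and 10 rose and 5 fell. srv-1 had 11.9, 11.2 and 10.7 CPM on day 1 and 4.35, 4.47 and 3.74 CPM on day 4 (-1.42 ± 0.12), lower in every day 4 library. Adjusted p of the genes named was between 2.9e-08 and 5.05e-06 by edgeR.

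Pseudogenes counted more falls than rises. Of 406 pseudogenes tested 35 rose (8.62%) and 149 fell (36.7%), with a median of -0.37, against 29.2% and 26% of 12591 protein-coding genes. The difference between the classes was not tested. These counts are from the TMM fit alone, and reads that pseudogenes share with near-identical genes were not counted. Of 30 lincRNA genes none rose and 8 fell (26.7%), the falls being near the share of all tested genes, 26.3%. By chromosome the shares were close: rises made up 27.8% to 29.2% of the tested genes of each nuclear chromosome, and falls 24.7% on chromosome V to 29.1% on X.

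Major sperm protein genes, low in both genotypes, fell in ceh-60 mutants. All 19 tested were called lower on day 4 there, with day 4 values so near 0 that no fold is given, while the difference from wild type passed for none by edgeR. Genes this scarce could pass the filter only through the libraries where they were highest, those of mutant day 1 among them. That all 19 fell is therefore no separate support. The 31 genes listed had 402, 93 and 438 counts together on day 1 in the mutant and 7, 3 and 17 on day 4. Their share of counts in the mutant was 0.00165%, 0.000383% and 0.00208% on day 1 and 2.79e-05%, 1.35e-05% and 6.84e-05% on day 4. In wild type it was 0.000681%, 0.002% and 0.000334%, then 0.000152%, 0.00149% and 0.000515%, so that the ranges of the days overlapped.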
